A study of Mus musculus with 11 samples.

Results

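The PP2C phosphatases are protein phosphatases that remove phosphate from serine and threonine residues and need magnesium or manganese ions to do so. The 10 genes followed here, of 22196 obtained in all, were Ppm1m, Ppm1a, Ppm1b, Ppm1d, Ppm1f, Ppm1g, Ppm1h, Ppm1k, Ppm1l and Ilkap. They were taken by family name around Ppm1m, which was known from an earlier look at these data to be lower in knockout than in wild-type glands. RNA came from the inguinal mammary gland of mice labelled PND16.5, with 6 knockout and 5 wild-type libraries. Both groups carried floxed Tsc1 alleles, Tsc1-fl/fl. Knockout mice also had the transgene Adipoq-Cre-Tg/+, and wild-type mice were Adipoq-Cre-+/+. Adipoq drives the recombinase Cre in adipocytes, so the other cells of the gland are meant to keep Tsc1, a subunit of the complex that restrains the kinase complex mTORC1. The strain label read Adipocyte Tsc1 Knockout in both groups, the diet was normal chow with access to milk, and the glands were taken 16 days after delivery. The labels do not say outright whether PND16.5 is the age of the mice or counts from the birth of their litters, nor whether they were lactating. The comparison asks how the transcripts of the whole gland differ when Tsc1 is deleted in adipocytes.

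Unlike the phosphatases of the PPP family, which are built from a catalytic subunit and many regulatory subunits, PP2C enzymes act as single chains, and each gene brings its own targets and its own place in the cell. Ppm1a, Ppm1b and Ppm1l are known for switching off the stress kinase TAK1 and its relatives, Ppm1d for reversing the p53 and DNA damage response, and Ppm1k for activating the branched-chain keto acid dehydrogenase in mitochondria. Ppm1m, also called PP2C eta, has been described as a phosphatase of the IL-1 to NF-kB pathway and is grouped by sequence with Ppm1h, which reverses the phosphorylation of Rab proteins by the kinase LRRK2, and with Ppm1j.

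Ppm1m (ENSMUSG00000020253) lies on chr9:106194947-106199746, minus strand, in the mouse build GRCm38. No other annotated gene overlapped it on either strand. The annotation has 2 full coding sequences for it that differ in the first coding exon. That of Ppm1m-203 begins in an exon of 224 bases at chr9:106198970-106199193, of which 75.9% are G or C. That of Ppm1m-201 begins in an exon of 56 bases at chr9:106198672-106198727, of which 51.8% are G or C. Both then run through the same 9 exons and 1162 bases, beginning with an exon of 124 bases at chr9:106198101-106198224. These exons are shown because they are what tells the 2 transcripts apart. Each is given on the coding strand, with the start codon in capitals where there is one.
Ppm1m-203 first coding exon: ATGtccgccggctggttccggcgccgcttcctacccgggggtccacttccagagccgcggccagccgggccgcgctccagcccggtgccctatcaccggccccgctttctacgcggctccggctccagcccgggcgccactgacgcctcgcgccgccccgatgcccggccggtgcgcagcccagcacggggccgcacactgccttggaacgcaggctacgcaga
Ppm1m-201 first coding exon: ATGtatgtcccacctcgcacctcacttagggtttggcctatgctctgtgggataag
Shared second coding exon: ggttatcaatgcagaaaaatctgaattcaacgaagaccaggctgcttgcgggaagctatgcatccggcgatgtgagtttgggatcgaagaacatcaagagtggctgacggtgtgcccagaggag

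Ppm1m is related to the other members, but its main coding sequence, that of Ppm1m-203, is distinct enough for its reads to be placed. None of the 31-base words of that sequence occurred in a transcript of another gene. Bases found only in Ppm1m-201 or Ppm1m-202 were not searched. Among the 19 other genes of the family, the main Ppm1m coding sequence of 1386 bases had most identical bases, as a share of the shorter of the 2 sequences aligned, with Ppm1h (63.0%) and Ppm1j (61.0%), followed by Ppm1e (60.3%). Over the aligned positions alone these shares were 64.9%, 64.2% and 64.5%. Other pairs of the family had shares above or near these, such as Ppm1d and Pptc7 (67.2%) and Ilkap and Phlpp1 (61.9%). The closest pair of the whole family was Ppm1a and Ppm1b, with 70.5% of aligned positions identical. A stretch of 60 bases in which 42 were the same in Ppm1m, Ppm1h and Ppm1j shows how alike the 3 genes are where they match best without a gap. It spans coding bases 661 to 720 of Ppm1m, 811 to 870 of Ppm1h and 790 to 849 of Ppm1j, and capitals mark the bases that all 3 share.
Ppm1m: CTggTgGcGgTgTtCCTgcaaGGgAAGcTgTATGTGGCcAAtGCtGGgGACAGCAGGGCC
Ppm1h: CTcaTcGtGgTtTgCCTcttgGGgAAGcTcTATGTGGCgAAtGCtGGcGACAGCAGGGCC
Ppm1j: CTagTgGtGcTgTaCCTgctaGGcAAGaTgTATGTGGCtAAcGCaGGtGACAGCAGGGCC

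The libraries held 25817975 to 37894237 estimated reads each. The level of a gene in a library is given as CPM, its read count divided by the scaled depth of the library (TMM method), and differences come from edgeR's quasi-likelihood test with p-values adjusted by the Benjamini-Hochberg method over the 12716 genes tested. All 10 members passed the filter on low counts. A difference counted as called at an adjusted p under 0.05. The labels give 11 samples and do not say whether each is a separate mouse, so p-values measure the spread between these samples. The targeted gene did not separate the groups and so does not check the labels: Tsc1 spanned 8.31 to 11.9 CPM among knockouts and 9.55 to 12.2 among wild-types, with a log2 fold change of -0.09 ± 0.11 (SE) and an adjusted p of 0.772 in edgeR. The 9 markers of milk-producing epithelium summed to between 340616 and 593889 CPM, so milk genes took a large part of the reads of this bulk tissue, in which fewer cells of a type and less RNA per cell cannot be told apart.

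Ppm1m stood at 37.2, 41.0, 37.3, 30.3 and 32.3 CPM in wild-type libraries 1 to 5. In knockout libraries 1 to 6 it stood at 22.0, 22.8, 21.2, 23.2, 23.9 and 24.4 CPM. The 2 groups did not overlap, with all knockouts below all wild-types, and the knockouts lay closer together, with 22.9 ± 1.19 CPM (SD, n = 6) against 35.6 ± 4.30 (SD, n = 5). Of all genes tested, 68 (0.535%) were lower in all knockouts than in any wild-type library. The edgeR log2 fold change was -0.64 ± 0.08 (SE), with a 95% interval from -0.82 to -0.46, and the adjusted p was 0.0120. As a percentage, this is a change of -35.7% in level. These values chose the family and are given as a description. Over all genes tested, 7 of 12716 (0.0550%) were called, 6 higher (0.0472%) and 1 lower (0.00786%) in knockout glands, and in that edgeR fit the 1 gene was Ppm1m. The split depended on the fit: DESeq2 called 87 genes higher and 59 lower, edgeR without knockout library 2 called 18 and 10, without wild-type library 4 it called 7 and 7, and on the TPM scale the calls were 4 and 0. Without knockout library 3 or 6, or with replicate number as a block in the fit, edgeR called 0 genes. Each library held between 642 and 1189 reads of Ppm1m. Its adjusted p was between 0.0502 and 0.0585, just past the threshold, without knockout library 1, 3 or 6 or wild-type library 3. With limma on log2(TPM + 0.1), where the median of all genes was 0.21, Ppm1m was at -0.43, or -0.64 relative to that median, and its adjusted p was 0.238. With the replicate block in edgeR it was at -0.64 with an adjusted p of 0.287.

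**Figure D1:**
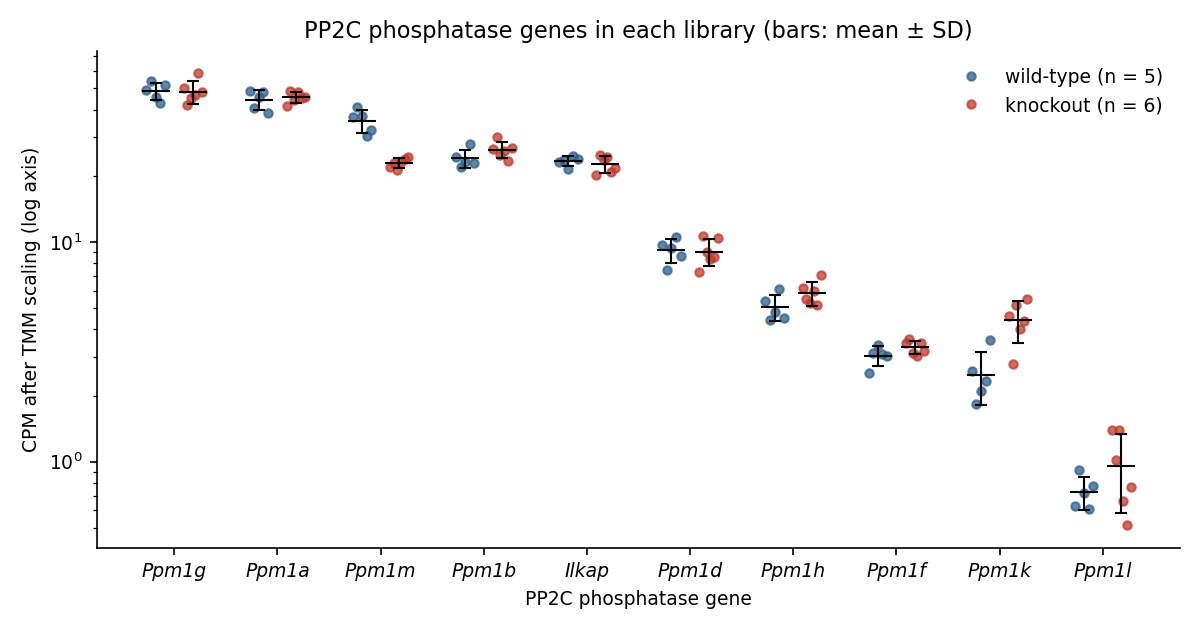
CPM after TMM scaling (log axis) of the 10 PP2C genes, one point per library, with wild-type in blue (n = 5) and knockout in red (n = 6) and black bars for the mean and SD. The knockout and wild-type points of Ppm1m do not overlap, those of the other 9 genes do, and 5 of 6 knockout points of Ppm1k lie above all wild-type points.

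The 2 main Ppm1m transcripts had similar log2 fold changes, neither called by itself, and the balance between them did not differ detectably. Of the 5 annotated coding transcripts listed, 3 had reads. Ppm1m-203 carried 57.7% of all reads of the gene, Ppm1m-201 carried 37.1%, and Ppm1m-202, whose 610 annotated coding bases lack a start and hold 9 bases not in Ppm1m-203, carried 5.14%. Ppm1m-203 had 20.6, 24.9, 18.5, 19.3 and 19.1 CPM in wild-type libraries 1 to 5, while the knockouts spanned 11.2 to 14.4 CPM, none as high as the lowest wild-type. The log2 fold change of Ppm1m-203 was -0.61 ± 0.10 (SE). For Ppm1m-201 the levels were 14.01, 13.9, 17.8, 9.52 and 10.9 CPM in wild-type libraries 1 to 5 and from 7.54 up to 10.02 CPM among knockouts, so that 1 wild-type library, number 4, lay inside the knockout range. For this transcript the log2 fold change was -0.63 ± 0.15 (SE). Neither transcript passed adjustment over the 18620 transcripts tested, of which 1 (0.00537%) did, with adjusted p-values of 0.123 and 0.399 in edgeR.

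The share of Ppm1m reads assigned to Ppm1m-203 is a measure that did not choose the gene. It was 55.9%, 61.6%, 52.8%, 61.9%, 58.7% and 58.8% in knockout libraries 1 to 6 and 55.4%, 60.7%, 49.4%, 63.5% and 59.3% in wild-type libraries 1 to 5. The means were 58.3% ± 3.48 (SD, n = 6) and 57.6% ± 5.47 (SD, n = 5), with an exact two-sided permutation p of 0.818. The gene-level edgeR test of transcript usage gave an adjusted p of 0.9996 for Ppm1m, against 4 of 3898 genes (0.103%) called. Since reads that fall in the 1162 shared bases do not tell the transcripts apart, these shares rest on the 224 and 56 bases of the first exons and on how the quantifier divided the rest.

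**Figure D2:**
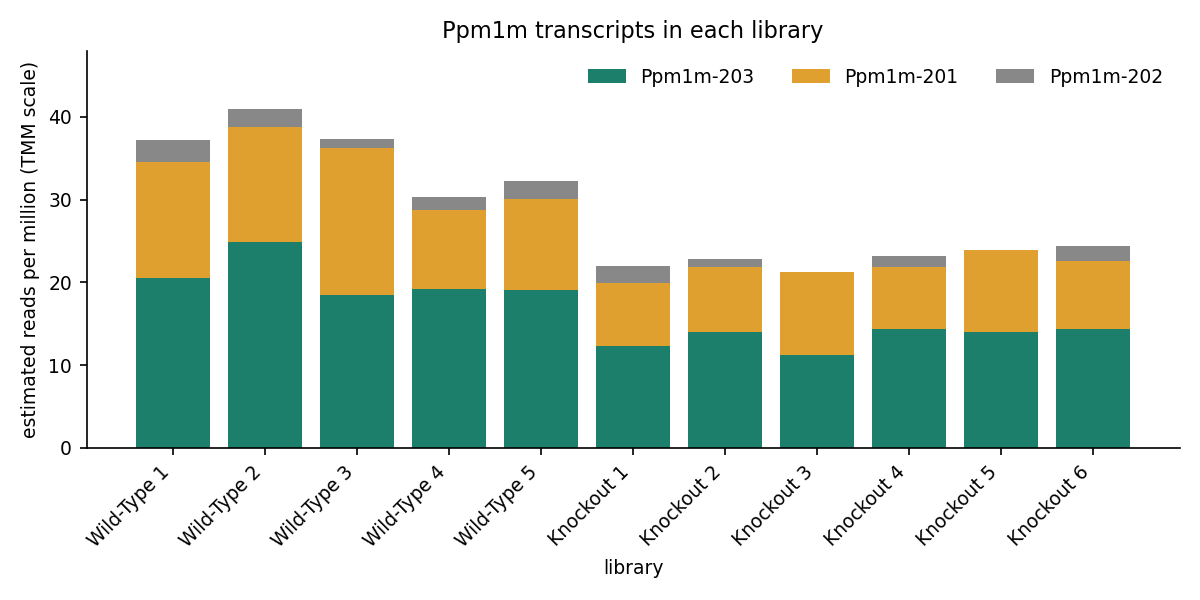
Estimated reads, in CPM, of Ppm1m-203 (green), Ppm1m-201 (orange) and Ppm1m-202 (grey), stacked, in each of the 11 libraries. All 6 knockout bars are shorter than all 5 wild-type bars, and Ppm1m-203 makes up between 49.4% and 63.5% of every bar.

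Markers of other cells also differed between the libraries, and their values stand here beside that of Ppm1m. Of all genes tested 12.4% had an unadjusted p under 0.05, the share beside which the marker counts below are to be set. The 6 B cell markers summed to 11.5, 1.60, 1.29, 1.89, 0.441 and 1.82 CPM in knockout libraries 1 to 6 and to 1.44, 44.6, 3.27, 13.2 and 59.4 CPM in wild-type libraries 1 to 5. All 3 that could be tested were lower in knockout glands at an unadjusted p under 0.05, and 0 were called. None of the 6 was without reads in all libraries. In the 7 libraries with a B cell marker sum of at most 10 CPM, 5 knockout and 2 wild-type, the log2 fold change of Ppm1m was -0.69, at an adjusted p of 0.0894 in edgeR, which misses the threshold. The 6 T cell markers summed to 1.13 to 6.55 CPM across knockouts and 1.02 to 21.9 across wild-types, and all 5 that could be tested were lower in value in knockout, 1 of them at an unadjusted p under 0.05. The 3 tested markers of lymph node stroma were also lower in value, 1 at an unadjusted p under 0.05, with sums of 771 to 1331 CPM across knockouts and 896 to 1904 across wild-types. All 6 fibroblast markers and all 6 myoepithelial markers were higher in value, 2 of each at an unadjusted p under 0.05. Fibroblast markers summed to 273 to 653 CPM across knockouts and 206 to 461 across wild-types, and myoepithelial markers to 455 to 634 and 364 to 658 CPM. None of these markers was called, their sums overlapped between the groups, and the part of B cells, T cells, stroma, fibroblasts and myoepithelium in the Ppm1m difference was not tested. The sum of the 9 adipocyte markers did not overlap, at 1183 to 1740 CPM for knockouts and 718 to 1049 for wild-types. Of these 9 markers 8 were higher in knockout, 5 of them at an unadjusted p under 0.05 and 0 called, and their part in the Ppm1m difference was not tested. The 9 markers of milk-producing epithelium summed to 340616 to 477505 CPM across knockouts and 422708 to 593889 across wild-types, which overlap. Of these 9 markers 6 had lower values in knockout, the same side as Ppm1m, with 0 called and 1, a higher one, at an unadjusted p under 0.05, and their part in the Ppm1m difference was not tested. Skeletal muscle markers stood apart in knockout library 1, at 2020 CPM against at most 297 CPM in any other library. Of 6 plasma cell markers 4 were lower and 2 higher, 1 lower one at an unadjusted p under 0.05. Of 2 tested neutrophil markers 1 was higher at that cut and 1 was lower in value. Macrophage markers (3 higher, 3 lower), endothelial markers (5 higher, 1 lower) and blood markers (1 higher, 4 lower) had 0 at that cut. In these lists 0 were called.

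**Figure D3:**
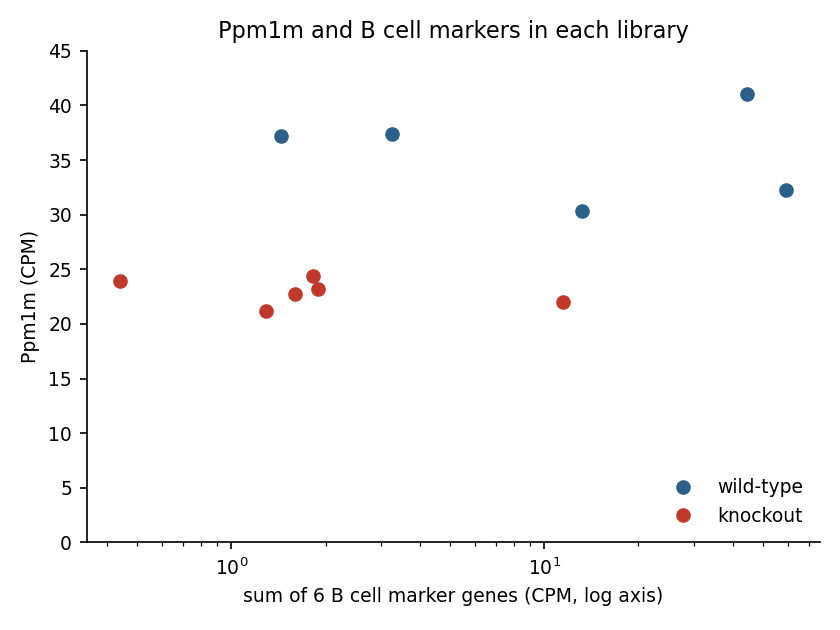
Ppm1m CPM (vertical axis) against the summed CPM of 6 B cell markers (horizontal log axis), one point per library, with wild-type in blue and knockout in red. Ppm1m lies between 30.3 and 41.0 CPM in wild-type and between 21.2 and 24.4 CPM in knockout libraries, and the marker sum between 1.44 and 59.4 CPM in wild-type and between 0.441 and 11.5 CPM in knockout libraries. The part of B cells in the difference was not tested.

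No other member was called in edgeR, and DESeq2 called 1 more, Ppm1k. Among the 10, 6 were higher and 4 lower in knockout, with a median log2 fold change of 0.08 beside -0.01 over all genes tested (on the TPM scale, relative to its median over all genes, Ppm1d was at -0.0060, Ppm1g at 0.010 and Ilkap at -0.0093). The 4 lower ones include Ppm1m, whose values chose the family. Of the other 9 members 1, Ppm1k, had an unadjusted p under 0.05, a share near the 12.4% of all genes tested.

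Among the phosphatases that act on TAK1 and the stress kinases, Ppm1a spanned 41.6 to 48.7 CPM among knockouts and 38.5 to 48.7 among wild-types. Its log2 fold change of 0.04 ± 0.08 (SE) had a 95% interval from -0.13 to 0.20. Ppm1b spanned 23.3 to 30.1 CPM among knockouts and 22.0 to 27.8 among wild-types, with an estimated log2 difference of 0.13 ± 0.08 (SE). The groups overlapped over most of their range for both genes. The Ppm1b value is less certain in one respect: 75.8% of the 31-base words of its coding sequence occur also in the annotated gene Gm7895. Whether Gm7895 was among the transcripts counted was not checked, so how reads of such words were assigned is not known. For Ppm1a, 7.08% of the words occur in other genes, Gm6004 and Gm7211. Ppm1l, which sits in the endoplasmic reticulum membrane, was the lowest member, at 0.514 to 1.40 CPM among knockouts and 0.607 to 0.919 among wild-types. With 14 to 63 reads per library its log2 fold change of 0.40 had a wide interval, from -0.20 to 1.01, and was 0.27 without knockout library 1.

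Within Ppm1b the reads were divided among 5 transcripts. Ppm1b-202 and Ppm1b-201 carried 45.8% and 44.9% of them. Ppm1b-208 made up 3.95%, 14.6%, 1.74%, 1.87%, 19.2% and 5.57% of Ppm1b reads in knockout libraries 1 to 6, and 0%, 2.56%, 1.89%, 0% and 0% in wild-type libraries 1 to 5. The groups overlapped, and knockout libraries 2 and 5 stood highest. The edgeR test of transcript usage had an adjusted p of 0.455 for Ppm1b, and one of 0.9996 for each of Ppm1a, Ilkap and Ppm1h.

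Ppm1k, the mitochondrial phosphatase that activates branched-chain amino acid breakdown, had the highest fold change of the family. It stood at 4.62, 2.80, 5.15, 4.03, 4.37 and 5.52 CPM in knockout libraries 1 to 6 and at 2.59, 1.84, 2.10, 2.34 and 3.58 CPM in wild-type libraries 1 to 5. Knockout library 2 lay inside the wild-type range, and the other 5 lay above all wild-type libraries. The log2 fold change was 0.82 ± 0.20 (SE), with a 95% interval from 0.39 to 1.26. Its adjusted p of 0.218 in edgeR missed the threshold, while DESeq2, which called 146 of 13395 genes (1.09%), called it with an adjusted p of 0.0170. Each library held between 44 and 208 reads of Ppm1k, and Gm45193 overlaps it on the other strand. Almost all of them, 98.9%, were assigned to Ppm1k-201. The adipocyte marker sum given above was higher in all knockout libraries than in any wild-type library, and its part in the Ppm1k difference was not tested.

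Ppm1d, the p53-induced phosphatase also called Wip1, spanned 7.26 to 10.7 CPM among knockouts and 7.43 to 10.5 among wild-types. The 2 ranges were nearly the same, and the log2 fold change was -0.02 ± 0.12 (SE). Ppm1g, a nuclear phosphatase linked to RNA splicing, spanned 42.0 to 58.5 CPM among knockouts and 42.8 to 53.8 among wild-types, and its log2 fold change was -0.01 ± 0.09 (SE). Ilkap, which binds the integrin-linked kinase and inhibits its signalling, spanned 20.2 to 24.8 CPM among knockouts and 21.4 to 24.6 among wild-types. Its log2 fold change of -0.05 had an interval from -0.21 to 0.11, the narrowest among the 10 members.

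Ppm1h, the Rab phosphatase closest in sequence to Ppm1m, went the other way from it in value but was not called. It had a median of 5.74 CPM and a range of 5.14 to 7.08 in knockout libraries, and a median of 4.81 and a range of 4.43 to 6.10 in wild-type libraries. The estimate for Ppm1h was a log2 fold change of 0.22 ± 0.12 (SE), with an interval from -0.04 to 0.47. Ppm1j, the other close relative, was at 10.5 to 16.9 CPM among knockouts and 10.8 to 12.7 among wild-types, and its log2 fold change was 0.19 ± 0.12 (SE), or 0.11 without knockout library 1. The intervals of both genes lie wholly above that of Ppm1m. Since Ppm1m was chosen for its lower values in knockout, this contrast is only a description, and the difference between genes was not tested. Ppm1f, which reverses the activation of calmodulin-dependent kinases and of PAK kinases, was at 3.04 to 3.62 CPM among knockouts and 2.52 to 3.39 among wild-types, and its log2 fold change was 0.13 ± 0.11 (SE), or 0.070 without wild-type library 1.

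The rest of the PPM family, to which PP2C genes belong, was also uncalled. Of 10 further genes 7 were tested, 5 with higher and 2 with lower values, with a median log2 fold change of 0.19. Pdp1 and Pdp2, the mitochondrial phosphatases of pyruvate dehydrogenase, had log2 fold changes of 0.38 ± 0.21 and 0.26 ± 0.26 (SE), and that of Pdp2 was 0.12 without knockout library 5 and 0.10 without wild-type library 4. Phlpp1 and Phlpp2, which act on the kinase Akt, were at -0.08 ± 0.11 and 0.24 ± 0.18 (SE), and Phlpp2 was at 0.12 without wild-type library 2 and 0.44 without wild-type library 4. Tab1, an inactive relative that binds and activates TAK1, was at 0.09 ± 0.12 (SE), and the mitochondrial Pptc7 at -0.08 ± 0.19 (SE). Relative to the median of all genes on the TPM scale, Phlpp1, Pptc7 and Tab1 were at -0.061, -0.044 and -0.069, and with transcript length offsets Tab1 also changed to lower. Ppm1e, Ppm1n and Pp2d1 were below the filter, with at most 4, 1 and 8 reads in any library.

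**Figure D4:**
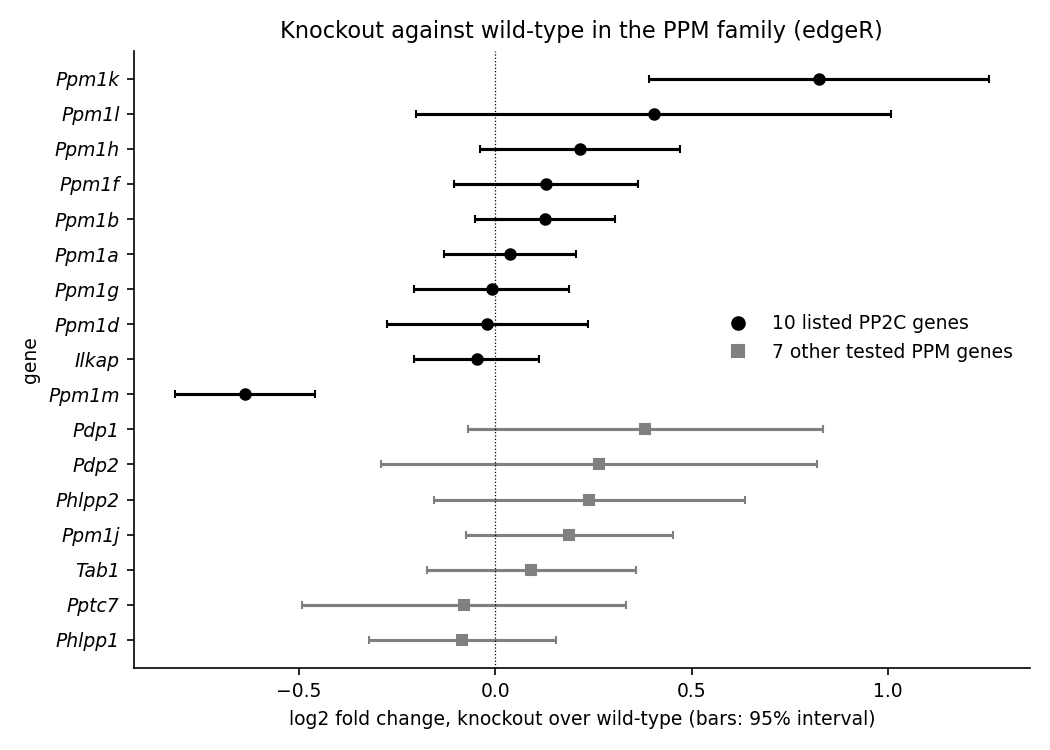
Log2 fold change of knockout over wild-type from edgeR (horizontal axis) with its 95% interval for the 10 listed PP2C genes (black circles) and 7 other tested genes of the PPM family (grey squares). Ppm1m, whose values chose the family, is alone in having an interval wholly below 0, and Ppm1k is alone in having one wholly above 0.

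To compare levels between genes, TPM was used, which is per length of transcript. In wild-type glands Ppm1a was highest, at 27.3 ± 7.86 TPM (SD, n = 5). Ppm1m came second at 12.1 ± 0.947 TPM, and its range of 10.9 to 13.5 TPM overlapped that of Ppm1g (11.7 ± 1.26 TPM), whose range in turn overlapped that of Ilkap (10.5 ± 1.98 TPM), as that of Ilkap did with Ppm1b (8.02 ± 1.68 TPM). Ppm1h (3.10 ± 0.284 TPM) and Ppm1d (1.99 ± 0.433 TPM) followed, each clear of its neighbours. Ppm1k (0.989 ± 0.309 TPM) and Ppm1f (0.878 ± 0.142 TPM) overlapped, and Ppm1l was lowest at 0.297 ± 0.0492 TPM.

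In knockout glands Ppm1m was at 9.06 ± 1.78 TPM (SD, n = 6) and came below Ppm1g, Ilkap and Ppm1b. Its TPM range of 6.85 to 11.9 there reached into the wild-type range, unlike its CPM. As the mean over libraries of its share in the summed TPM of the 10 members, Ppm1m made up 16.0% in wild-type and 10.2% in knockout glands. The same share of Ppm1k was 1.302% in wild-type and 2.71% in knockout glands. All other members kept their places within 1 step between the genotypes. These shares restate the differences in level and add no test.

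The genes that the PP2C phosphatases act on, or act beside, were followed in 8 lists with 88 genes. Of the 80 tested, 0 were called in edgeR, and the smallest adjusted p was 0.218, while 13 had an unadjusted p under 0.05, against 12.4% of all genes tested. DESeq2 called 1 gene of these lists, Map2k4. The median log2 fold change of a list was between -0.14 and 0.14, beside -0.01 over all genes tested.

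Among the 15 tested genes of the TAK1 and stress kinase list, Map2k4, a kinase that activates JNK, had the smallest p. It was at 13.6, 20.4, 15.9, 15.9, 14.2 and 16.4 CPM in knockout libraries 1 to 6 and at 12.3, 10.1, 10.2, 13.5 and 9.16 CPM in wild-type libraries 1 to 5. The groups did not overlap, which held for 168 of all genes tested (1.32%). The log2 fold change of Map2k4 was 0.53 ± 0.13 (SE), with an adjusted p of 0.218 in edgeR and 0.0200 in DESeq2. It was the only one of these 15 with an unadjusted p under 0.05.

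In the list from the IL-1 receptor to the IKK kinases, the pathway with which Ppm1m has been linked, 5 of 13 genes had an unadjusted p under 0.05 and 0 were called. Of all genes tested 12.4% had such a p, and the list was chosen with earlier results known. Il1rap, the accessory chain of the IL-1 receptor, had the smallest p, with medians of 11.8 CPM among knockouts and 7.79 among wild-types and a log2 fold change of 0.51 ± 0.17 (SE). The adaptors Myd88 and Traf6 were at 0.30 ± 0.10 and 0.43 ± 0.15 (SE) on the log2 scale. Of the kinases of the IKK complex, Chuk was at 0.24 ± 0.10 (SE) and Ikbkb at -0.14 ± 0.06 (SE). The 4 values above 0 and the 1 below 0 all missed the threshold after adjustment over all genes (of the 13, 9 had higher and 4 lower values), with adjusted p-values in edgeR between 0.301 and 0.383.

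The branched-chain keto acid dehydrogenase list holds the enzyme that Ppm1k activates. Bckdha and Bckdhb, its catalytic subunits, were at -0.24 ± 0.10 and -0.25 ± 0.11 (SE) on the log2 scale, and Bckdk, the kinase that opposes Ppm1k, at -0.21 ± 0.09 (SE). These 3 of 6 tested genes had an unadjusted p under 0.05, beside 12.4% of all genes tested, and were not called. The other 3 tested genes were Dld, a further subunit, at -0.06 ± 0.08 (SE), Dbt, the subunit that carries the transferase activity, at 0.09 ± 0.14 (SE) and Bcat2, the mitochondrial aminotransferase that makes the keto acids, at 0.16 ± 0.18 (SE). The list thus had 2 values on the same side of 0 as Ppm1k and 4 on the other, and Bckdk was at -0.19 relative to the median of all genes on the TPM scale.

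In the remaining lists the gene with the smallest p was likewise not called. Of 12 genes of the p53 and DNA damage list, Gadd45a, a p53 target, was at 0.99 ± 0.38 (SE) with 10 to 100 reads per library, and Mdm4, which restrains p53, was at 0.43 ± 0.20 (SE). Of these 12 genes 6 had higher and 6 lower values, and the lowest, Cdkn1a, a p53 target named here after its value was seen, was at -0.54 ± 0.38 (SE). Of 10 tested genes around LRRK2 and its Rab substrates, Rab3a, a Rab of regulated secretion, was at -0.37 ± 0.18 (SE). Rsu1, which binds the integrin-linked kinase complex, was at 0.16 ± 0.10 (SE) among 6 genes tested. Pak1, a kinase that Ppm1f can switch off, was at 0.54 ± 0.20 (SE) among 7 genes tested. Ppp3cc, a catalytic subunit of calcineurin, was at -0.29 ± 0.11 (SE) among 11 tested catalytic subunits of the PPP family.

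The genes around Ppm1m were read from the same fit. Within 250 kb of it 23 genes are annotated and 11 were tested, of which 0 were called. An unadjusted p under 0.05 was found for 3 of these 11, beside 12.4% of all genes tested. Of the 11, 4 had higher and 7 lower values in knockout glands (on the TPM scale, relative to its median over all genes, Rpl29, Abhd14a and Abhd14b stayed lower and Acy1 was higher, at 0.28). The nearest is Twf2, an actin-binding protein gene that begins 3.36 kb upstream of Ppm1m and is read in the other direction. Twf2 was at 8.22, 5.97, 6.74, 6.28, 4.88 and 8.19 CPM in knockout libraries 1 to 6 and at 8.61, 8.81, 10.7, 8.08 and 11.5 CPM in wild-type libraries 1 to 5. Only knockout libraries 1 and 6 reached the wild-type range. The log2 fold change of Twf2 was -0.50 ± 0.14 (SE), with a 95% interval from -0.82 to -0.19, and the adjusted p in edgeR was 0.269.

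On the other side of Ppm1m, Wdr82, a gene for a subunit of histone methyltransferase and transcription termination complexes, ends 3.81 kb away and had a log2 fold change of 0.04 ± 0.13 (SE). Tlr9, the DNA-sensing receptor gene 22.9 kb away, was at -0.46 ± 0.25 (SE), or -0.28 without wild-type library 5. Alas1, which makes the enzyme that starts heme synthesis, was at 0.33 ± 0.11 (SE), and at 0.19 in the lowest of the alternative fits. Col6a4, a collagen gene with 19 to 120 reads per library, was at -0.995 ± 0.42 (SE). Col6a4 was at -0.50 without wild-type library 5 and at 0.08 in the 7 libraries with few B cell markers. Poc1a, Dusp7, Rpl29, Acy1, Abhd14a and Abhd14b, between 81.3 and 247.7 kb away, had log2 fold changes between -0.32 and 0.09, and that of Abhd14a, the lowest, was -0.16 without wild-type library 2.

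**Figure D5:**
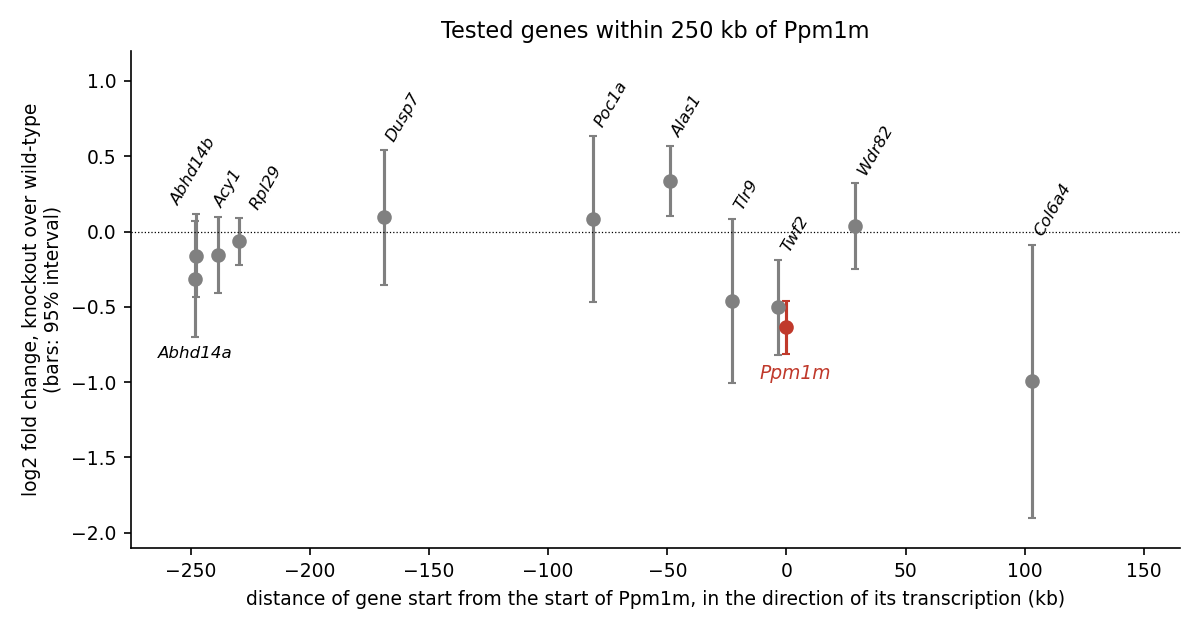
Log2 fold change of knockout over wild-type with its 95% interval (vertical axis) against the distance in kb of a gene's start from the start of Ppm1m (horizontal axis, upstream to the left), for the 11 tested neighbours (grey) and Ppm1m (red). Twf2, next to Ppm1m, is at -0.50 and Wdr82 on the other side is at 0.04.

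The genes most like Ppm1m from library to library, after the mean of each genotype was subtracted, are listed as the extremes of a ranking over all genes. Over 11 libraries the genes with the highest Pearson correlation of residual log2 CPM with Ppm1m were Sppl2b (r = 0.92), an intramembrane protease gene, Fndc7 (0.91), Arv1 (0.90), a gene of sterol transport, Wdr70 (0.90) and Mmp11 (0.88), a gene for a matrix-degrading enzyme. The lowest were Morf4l1 (-0.92), a gene for a chromatin protein, and Cstf3 (-0.90), a gene of mRNA 3-prime end processing. Of 12715 genes 31 had r above 0.8 and 34 had r below -0.8, and no chance level was computed for such counts. Extremes of so many correlations over so few libraries can be high without any relation between the genes, so these values are a description and single out no gene. By Spearman's rank correlation Wdr70 came at place 67, with rho = 0.75, and Mmp11 at place 32, with rho = 0.79. The points share library and depth. None of these 7 genes was called between genotypes, with log2 fold changes between -0.47 and 0.17. Among the other 9 members r with Ppm1m ran from -0.49 for Ppm1b to 0.46 for Ppm1g.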

How the data were processed

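Total RNA of 11 mammary glands was sequenced from strand-specific libraries, per the labels' protocols. The submitters' processing notes name Salmon 1.3.0, DESeq2 1.28.1 and the build GRCm38.p6, and index and options were not given in the sources used here. The deposited tables give an estimated count and a TPM for each transcript and library, per the file headers. The authors also deposited a table of normalized gene values, whose unit is a signal on the authors' scale. It is used only as an alternative. The deposited tables also hold transcript lengths and effective lengths in bases, another kind of value, used as offsets in an alternative.

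Estimated counts were summed per gene over the GENCODE M21 annotation and rounded. Of 58204 transcripts 752 were not matched and held 0.195% to 0.265% of the reads. Of the matched transcripts that have a coding sequence of the same version, 94.3% were as long as that sequence or up to 3 bases longer, so untranslated regions were mostly not counted. Whether counting used strand was not given in the sources used here. Low genes were removed with filterByExpr (at most 0.0698% of reads), and edgeR 4.0.16 (TMM factors, robust quasi-likelihood fit, genotype as the only term) was run in R 4.3.3. The mean TMM factor was 1.07 for knockouts and 0.934 for wild-types. Transcript usage was tested with diffSpliceDGE. Shares were compared with an exact permutation test. Alternatives were RLE and upper-quartile factors, no filter, at least 1 CPM in 5 libraries, no robust estimation, length offsets, DESeq2 1.42.0, limma 3.58.1 (voom, and log2(TPM + 0.1)), a replicate block and each library left out. Chosen after seeing the data were the fit of libraries with at most 10 CPM of B cell markers and the authors' values. Scripts were tested on simulated data.

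Over the 25 combinations of 2 libraries of one group, counts differed by 21.9 to 93.6 times sampling noise (chi-square per degree of freedom), so no 2 of them are copies of one library. Sequences were read from the GENCODE M21 transcripts, placed on GRCm38 by its annotation, and aligned with Biopython 1.88. The members and the gene lists were chosen with earlier results of these data known. Named are all members and other PPM genes, Tsc1, the gene of each list with the smallest p, tested neighbours within 250 kb, and the 5 genes most and 2 least correlated with Ppm1m, with predicted gene names passed over. Beyond this rule, the genes at an unadjusted p under 0.05 in 3 lists, the other tested genes of the branched-chain list (Dld, Dbt, Bcat2) and Cdkn1a were named after their values were seen.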

Additional observations from a re-analysis of the deposited data

How the results depend on the processing

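In most alternatives the value of Ppm1m moved little, and its call depended on the fit. Its log2 fold change was between -0.69 and -0.43 over all alternatives and between -0.69 and -0.58 with each library left out, where the adjusted p in edgeR ran from 0.00861 to 0.0585. The log2 ratio of the means of the authors' deposited normalized values was -0.67. Ppm1m kept its direction but missed the threshold with limma on log2(TPM + 0.1) (-0.43), with the replicate block (-0.64, adjusted p 0.287) and in the libraries with few B cell markers (-0.69). The cause was not tested, but the block and the last of these fits use fewer libraries. The replicate numbers gave no sign of pairing: residuals of same-numbered libraries correlated between -0.22 and 0.19, 1 of 5 pairs above 0.1, and no wild-type library correlated best with the knockout library of its number.

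Genes called over all genes numbered 7, against 146 with DESeq2, 4 on the TPM scale, 0 with the replicate block, 0 in the libraries with few B cell markers and 0 to 28 with a library left out, 0 without knockout library 3 or 6 (1478 and 1319 at an unadjusted p under 0.05 in edgeR) and 28 without knockout library 2. Without knockout library 1 or wild-type library 3 it was 2, and without wild-type library 1, 4 or 5 it was 13, 14 or 13. Members called numbered 1, against 2 with DESeq2, 0 on the TPM scale, 0 with the block, 0 in the libraries with few B cell markers and 0 to 1 with a library left out. Unadjusted p-values under 0.05 numbered 1023 with the block and 972 in the libraries with few B cell markers.

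The difference in the Ppm1m-203 share, 0.65 percentage points, ran from -1.41 to 2.12 with a library left out.

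Among named genes that were not called, some values changed sign, and none of these passed the threshold. On the TPM scale, where the median of all genes was 0.21, the log2 fold changes became 0.20 for Ppm1d, 0.22 for Ppm1g, 0.20 for Ilkap, 0.070 for Tsc1, 0.17 for Pptc7, 0.15 for Phlpp1, 0.016 for Bckdk, 0.16 for Rpl29, 0.49 for Acy1, 0.070 for Abhd14a and 0.12 for Abhd14b, of which those of Ppm1g and Acy1 lie above that median. Also on the TPM scale, Ikbkb became 0.082 and Dld 0.15, each below that median. With length offsets the log2 fold changes became -0.079 for Tab1, -0.0031 for Wdr82 and 0.32 for Acy1. In the libraries with few B cell markers they became -0.028 for Ppm1a, 0.015 for Ppm1g, 0.052 for Ilkap and 0.084 for Col6a4. With a library left out they ran from -0.011 to 0.073 for Ppm1a, from -0.086 to 0.043 for Ppm1d, from -0.066 to 0.033 for Ppm1g, from -0.20 to 0.054 for Pptc7, from -0.14 to 0.013 for Phlpp1, from -0.027 to 0.16 for Wdr82, from -0.063 to 0.29 for Poc1a and from -0.0089 to 0.22 for Dusp7. Without changing sign, 1 library left out moved others by over 1.5 times, besides those given in the text: Tab1 ran from 0.013 (without knockout library 5) to 0.15 (without knockout library 3), Tsc1 from -0.13 (knockout 2) to -0.028 (knockout 1), Ilkap from -0.077 (wild-type 3) to -0.0096 (knockout 1), and Rpl29 from -0.12 (wild-type 4) to -0.037 (wild-type 1), while Acy1 was at -0.078 without knockout library 1 and Abhd14b at -0.083 without wild-type library 3 and -0.11 without knockout library 1.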
